A study of Mus musculus with 6 samples.

Results

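A set of 10 genes of glucose use and of the response to low oxygen were followed: Slc2a1, Hk2, Pfkp, Pfkfb3, Pgk1, Ldha, Pdk1, Car9, Vegfa and Bnip3. They were taken by name, as the probe sets annotated with that 1 gene symbol, and where several probe sets carried a symbol the one with the highest mean over the 6 arrays was used. All 10 genes had such a probe set and passed the filter on low signal, out of 22180 genes measured and 15526 tested. RNA came from mouse hepatic stellate cells, which store vitamin A along the liver sinusoids and become collagen-producing myofibroblasts in injured liver or on plastic. PRI-724 cells were activated by more than 20 days in culture and received C-82, the active form of PRI-724, at 10 µM. The labels do not give how long they were exposed. Vehicle cells were activated in the same way, for more than 20 days, and received the solvent alone. Quiescent cells had been plated for 12 h. Each of these 3 states was measured in cells of old mice (6 to 9 months) and of young mice (8 to 11 weeks), with 5 mice pooled per sample. There was 1 array for each age and state, 6 in all. All cells grew on uncoated plastic in high-glucose medium with serum and pyruvate, and the labels name no strain or genotype.

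Values are the authors' log2 signals, so a difference of 1 is a 2-fold difference, and signals of different genes cannot be set against each other. A state difference was averaged over the old and the young pair (n = 2 pairs) and tested with limma, and adjusted p-values are Benjamini-Hochberg values over all 15526 genes, with a threshold of 0.05. The standard error (SE) starts from how far the ages disagree over all 3 states, since no group has a repeat. limma then draws it towards the spread of genes of like signal. It is the same for the 3 state differences of a gene, so it is not the spread of the 2 pairs compared. The young PRI-724 array was narrower than the rest, with an interquartile range of 1.71 against 2.11 to 2.43 on the other 5 arrays. The samples also carried transcripts of other liver cells. The mean log2 signal of 15 macrophage markers was 6.10 and 5.84 in old and young PRI-724 cells, 8.47 and 8.71 in old and young vehicle cells, and 9.05 and 8.43 in old and young quiescent cells. For 12 hepatocyte markers it was 6.86 and 6.13 in old and young PRI-724 cells, 6.72 and 4.97 in old and young vehicle cells, and 8.89 and 6.16 in old and young quiescent cells. For 15 sinusoidal endothelial markers it was 7.28 and 6.42 in old and young PRI-724 cells, 9.47 and 9.67 in old and young vehicle cells, and 8.63 and 9.58 in old and young quiescent cells. The 13 stellate cell markers, which hold genes of both the quiescent and the activated state, averaged 8.41 and 7.35 in old and young PRI-724 cells, 8.97 and 8.77 in old and young vehicle cells, and 7.45 and 7.43 in old and young quiescent cells.

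Glycolysis breaks glucose down to pyruvate in the cytosol, and lactate dehydrogenase turns pyruvate into lactate when it is not burnt in mitochondria. In low oxygen the prolyl hydroxylases (Egln1 to Egln3) cease to mark the hypoxia-inducible factors (HIF) for destruction by the von Hippel-Lindau protein. HIF then pairs with Arnt, recruits the coactivators CBP and p300, and switches on glucose transporters, glycolytic enzymes and genes such as Vegfa. PRI-724 is designed to block the binding of beta-catenin to CBP. Activated stellate cells are known for increased glycolysis.

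HIF binds DNA at a short core. A window around a start of 4 of the genes is shown, because these windows range from several copies of that core to none. The windows run from 250 bases before to 50 bases after the start, are credited to RefSeq on GRCm38.p6, and read 5′ to 3′ on the gene's strand. Capitals mark ACGTG, or CACGT where it lies on the other strand.
Ldha chr7:46845554-46845853 (+ strand): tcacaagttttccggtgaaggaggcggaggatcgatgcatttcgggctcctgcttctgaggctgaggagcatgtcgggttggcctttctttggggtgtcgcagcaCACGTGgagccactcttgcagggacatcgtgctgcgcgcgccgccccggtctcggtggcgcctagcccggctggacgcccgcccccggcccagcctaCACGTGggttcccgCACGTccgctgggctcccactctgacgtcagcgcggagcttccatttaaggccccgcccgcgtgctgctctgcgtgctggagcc
Bnip3 chr7:138909457-138909756 (- strand): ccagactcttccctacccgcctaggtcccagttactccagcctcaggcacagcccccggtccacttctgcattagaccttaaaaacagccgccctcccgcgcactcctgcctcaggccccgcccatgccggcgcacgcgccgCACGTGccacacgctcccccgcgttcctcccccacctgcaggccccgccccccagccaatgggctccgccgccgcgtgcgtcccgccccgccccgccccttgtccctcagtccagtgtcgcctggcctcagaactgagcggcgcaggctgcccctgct
Slc2a1 chr4:119108495-119108794 (+ strand): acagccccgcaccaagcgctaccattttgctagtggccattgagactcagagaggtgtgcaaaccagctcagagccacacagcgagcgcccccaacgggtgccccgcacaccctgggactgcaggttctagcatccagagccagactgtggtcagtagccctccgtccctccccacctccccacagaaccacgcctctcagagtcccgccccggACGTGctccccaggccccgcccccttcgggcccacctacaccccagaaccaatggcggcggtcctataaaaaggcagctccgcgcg
Vegfa chr17:46032328-46032627 (- strand): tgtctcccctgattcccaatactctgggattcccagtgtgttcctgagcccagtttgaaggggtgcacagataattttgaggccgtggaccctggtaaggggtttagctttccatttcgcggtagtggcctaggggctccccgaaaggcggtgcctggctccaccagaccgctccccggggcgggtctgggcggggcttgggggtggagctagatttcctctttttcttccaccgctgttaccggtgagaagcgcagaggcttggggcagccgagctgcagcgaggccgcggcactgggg
The Ldha window held 5 matches in 3 runs, since CACGTG reads as a match on both strands. The Bnip3 window held 2 matches in 1 run and the Slc2a1 window held 1. This start of Vegfa had 0, and its other start had 1. A match to ACGTG on either strand was present for 8 of the 10 genes (9 of their 14 windows), and in 19.6% of all 32851 windows of this length. The related core GCGTG, searched on both strands, was present for 7 of the 10 genes (8 of their 14 windows), and in 32.4% of all windows. A match describes letters and is not evidence of binding, and bases outside the windows were not searched.

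**Figure D1:**
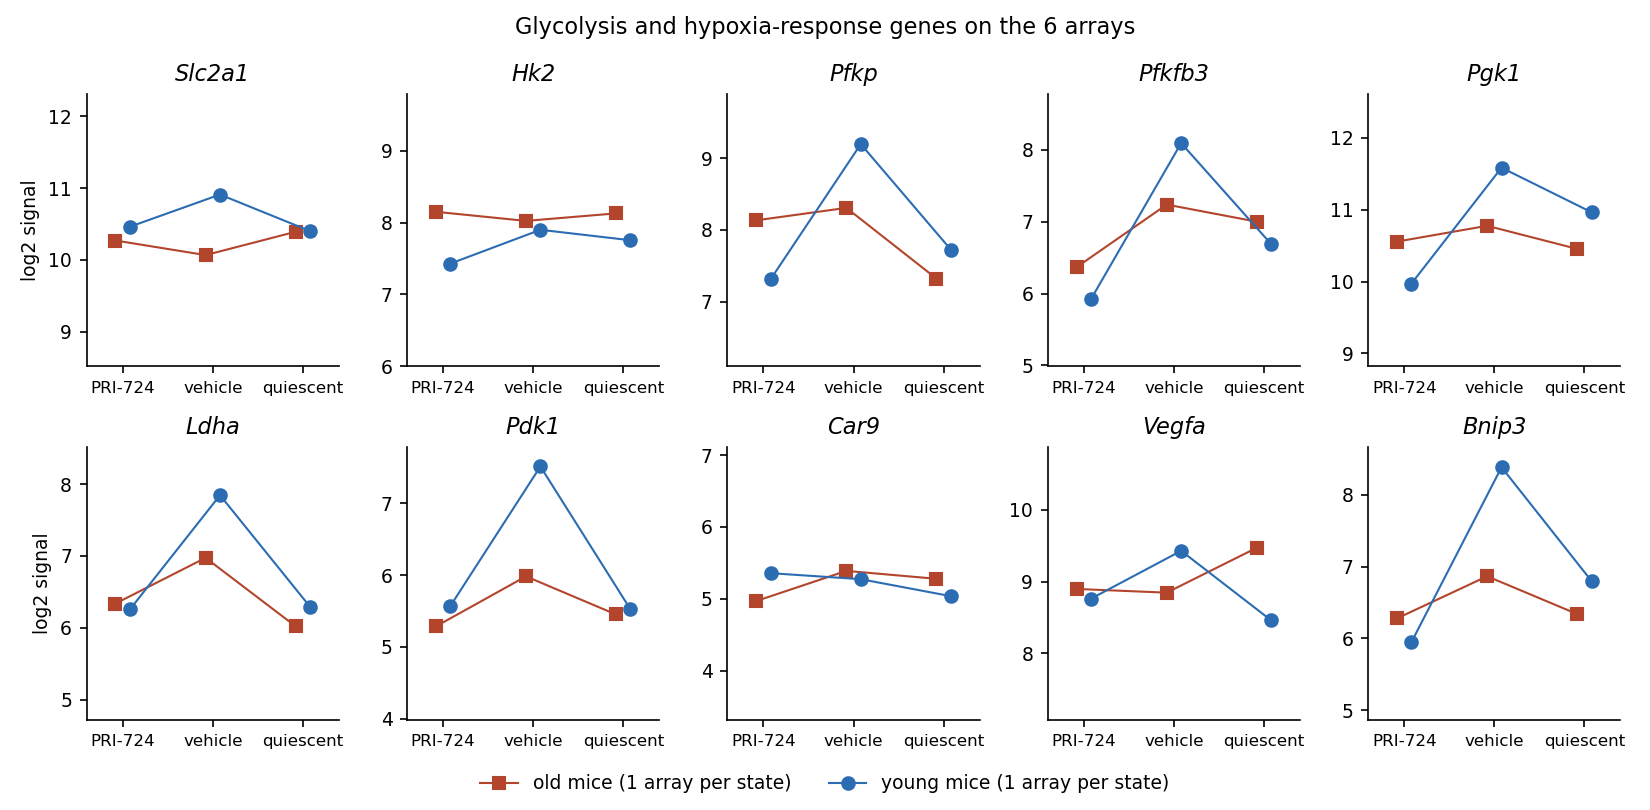
Log2 signal (vertical axis, 3.8 units in every panel) of each of the 10 genes in PRI-724, vehicle and quiescent cells, with squares for old mice and circles for young mice, 1 array per point. The young vehicle point is the highest of the 6 for 7 genes, and the points of Hk2 and Car9 lie within 0.72 and 0.42 units of each other.

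Glucose enters through Slc2a1, the transporter GLUT1. It measured 10.27 and 10.46 in old and young PRI-724 cells, 10.07 and 10.91 in old and young vehicle cells, and 10.39 and 10.40 in old and young quiescent cells. The young vehicle array was the highest and the old vehicle array the lowest, so the states overlapped. Hk2, the hexokinase that traps glucose as glucose 6-phosphate, measured 8.15 and 7.43 in old and young PRI-724 cells, 8.02 and 7.90 in old and young vehicle cells, and 8.13 and 7.75 in old and young quiescent cells. Its states overlapped as well.

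The committed step of glycolysis is run by phosphofructokinase. Its platelet-type subunit Pfkp measured 8.13 and 7.31 in old and young PRI-724 cells, 8.31 and 9.20 in old and young vehicle cells, and 7.32 and 7.73 in old and young quiescent cells. Both vehicle arrays lay above the other 4, while PRI-724 and quiescent arrays overlapped. Pfkfb3, which makes the fructose 2,6-bisphosphate that activates phosphofructokinase, measured 6.37 and 5.92 in old and young PRI-724 cells, 7.24 and 8.09 in old and young vehicle cells, and 7.0 and 6.69 in old and young quiescent cells. Here the states did not overlap: vehicle arrays were the highest, quiescent arrays lay between, and PRI-724 arrays were the lowest.

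Pgk1, the phosphoglycerate kinase that yields ATP, measured 10.56 and 9.97 in old and young PRI-724 cells, 10.78 and 11.59 in old and young vehicle cells, and 10.45 and 10.96 in old and young quiescent cells. The old vehicle array lay below the young quiescent one. Ldha, the muscle-type subunit of lactate dehydrogenase, measured 6.34 and 6.26 in old and young PRI-724 cells, 6.97 and 7.85 in old and young vehicle cells, and 6.02 and 6.29 in old and young quiescent cells. Both vehicle arrays lay above the other 4, which stood within 0.32 units of each other. Pdk1, the kinase that shuts off pyruvate dehydrogenase and keeps pyruvate out of the citric acid cycle, measured 5.28 and 5.57 in old and young PRI-724 cells, 5.98 and 7.51 in old and young vehicle cells, and 5.45 and 5.52 in old and young quiescent cells. Again the vehicle arrays lay above the other 4, with the young one far above the old one.

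Of the hypoxia-response genes outside glucose use, Bnip3 encodes a mitochondrial protein that promotes mitophagy. It measured 6.28 and 5.95 in old and young PRI-724 cells, 6.87 and 8.38 in old and young vehicle cells, and 6.34 and 6.80 in old and young quiescent cells. The vehicle arrays were the highest 2, and the old vehicle array exceeded the young quiescent one by a small margin. Vegfa, the growth factor that drives vessel growth, measured 8.90 and 8.76 in old and young PRI-724 cells, 8.84 and 9.43 in old and young vehicle cells, and 9.47 and 8.46 in old and young quiescent cells. Its highest array was old quiescent and its lowest young quiescent, so no state stood apart. Car9, the cell-surface carbonic anhydrase that handles acid, measured 4.97 and 5.36 in old and young PRI-724 cells, 5.39 and 5.27 in old and young vehicle cells, and 5.28 and 5.04 in old and young quiescent cells. Its signal lay near the filter (log2 4.70), and its 6 values differed by 0.42 at most.

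Culture activation was asked first, as vehicle against quiescent cells. Ldha rose by 1.25 ± 0.30 (SE, n = 2 pairs), or 2.39-fold, with an adjusted limma p of 0.0408. It was higher in vehicle cells in both pairs, by 0.95 in the old pair and 1.55 in the young pair. It was the 1 member of 10 that passed, and 0 members fell. Of all 15526 genes 4.61% rose and 1.26% fell in this comparison. Unadjusted limma p-values lay under 0.05 for 5 members, against 22.4% of all genes.

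The Ldha call depended on single arrays and on the scaling. Its adjusted p was 0.615 without the young vehicle array, 0.143 without the young quiescent array, 0.0970 without the old quiescent array, 0.0608 without the old PRI-724 array and 0.0612 without the young PRI-724 array. It was 0.0721 after cyclic loess and 0.0969 after quantile normalization, and it passed in 5 of 14 alternatives (0.0140 to 0.615). Without the old vehicle array 5 members passed, which were Pfkp, Pfkfb3, Ldha, Pdk1 and Bnip3. Ldha, Pgk1 and Gapdh have many processed pseudogenes in the mouse, and whether these share signal with the probe sets was not tested.

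Pdk1 differed by a like amount, 1.26 ± 0.35, but its adjusted p was 0.0665. It was 1.44-fold higher in the old vehicle cells and 3.97-fold higher in the young vehicle cells than in quiescent cells of the same age. Pfkp was higher by 1.23 ± 0.39 (adjusted p = 0.0955), at 1.98-fold in the old pair and 2.77-fold in the young pair. The mean difference of Bnip3 was 1.06 ± 0.40 (adjusted p = 0.150), made of 1.44-fold in the old pair and 3.0-fold in the young pair. Pfkfb3 showed 0.82 ± 0.35 (adjusted p = 0.198), with 1.18-fold in the old pair and 2.65-fold in the young pair.

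The remaining members moved less or not in one direction. Pgk1 differed by 0.47 ± 0.30 (adjusted p = 0.395), 0.32 in the old pair and 0.62 in the young pair. Car9 differed by 0.17 ± 0.26 (adjusted p = 0.745). Slc2a1 was at -0.32 in the old pair and 0.51 in the young pair, a mean of 0.09 ± 0.24 (adjusted p = 0.857). Vegfa was at -0.63 in the old pair and 0.97 in the young pair (mean 0.17 ± 0.36, adjusted p = 0.818). Hk2 gave 0.02 ± 0.28 (adjusted p = 0.976). After cyclic loess Hk2 was lower in vehicle cells of both ages, at -0.27 in the old pair and -0.09 in the young pair.

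As a group the members had a median difference of 0.65 between vehicle and quiescent cells, against 0.04 for all tested genes. In the old pair their median was 0.28 and in the young pair 1.19. Higher in both pairs were 7 members, against 40.7% of all genes, and 3 members had pairs of opposite sign, against 25.9% of all genes. Both vehicle arrays lay above both quiescent arrays for 5 members, against 33% of all genes. At least 2-fold higher in the young pair were 5 members (10.2% of all genes), and in the old pair 0 (6.09% of all genes). The young pair's difference was the larger in size for all 10, against 59% of all genes, and this difference between ages could not be tested with 1 array per group. In these bulk samples, fewer cells of a type and less RNA per cell cannot be told apart. In vehicle against quiescent cells 8 of 13 stellate cell markers rose and 1 fell, 3 of 15 endothelial and 1 of 15 macrophage markers rose, and 3 of 12 hepatocyte markers fell. Their part in the result was not tested.

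**Figure D2:**
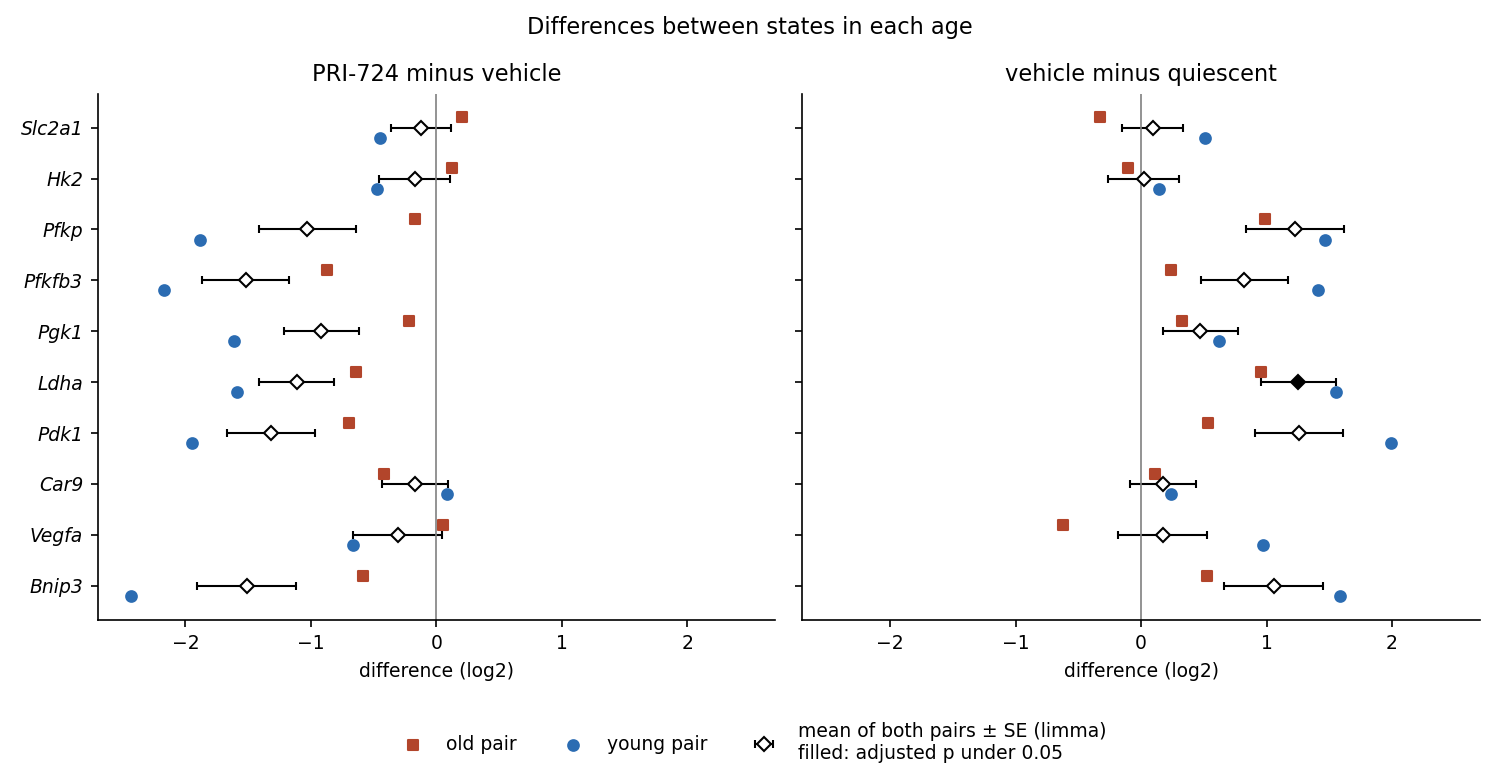
Difference in log2 signal (horizontal axis) of each gene for PRI-724 minus vehicle (left) and vehicle minus quiescent (right), as the old pair (square), the young pair (circle) and the mean of both with limma's SE (diamond, filled where the adjusted p is under 0.05). The filled diamond is Ldha for vehicle minus quiescent, and the young pair lies farther from 0 than the old pair for 9 genes on the left (74.8% of all genes) and all 10 on the right (59% of all genes).

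PRI-724 was then set against vehicle in activated cells. Pfkfb3, Bnip3, Pdk1, Ldha, Pfkp and Pgk1 had lower values in PRI-724 cells of both ages, but 0 of 10 members passed limma's threshold in either direction. Over all genes 1.93% fell and 0.271% rose. Unadjusted limma p-values lay under 0.05 for 6 members, against 15.5% of all genes. Pfkfb3 came closest, at -1.52 ± 0.35 (adjusted p = 0.0598), and was 1.83-fold lower in the old pair and 4.50-fold lower in the young pair. Bnip3 differed by -1.51 ± 0.40 (adjusted p = 0.0939), at 1.5-fold lower in old cells and 5.41-fold lower in young cells.

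Pdk1 differed by -1.32 ± 0.35 (adjusted p = 0.0981), 1.62-fold lower in the old pair and 3.85-fold lower in the young pair. Ldha differed by -1.11 ± 0.30 (adjusted p = 0.102), with 1.55-fold lower in the old pair and 3.01-fold lower in the young pair. Its level with PRI-724 therefore stood near that of quiescent cells in both ages. Pfkp was at -0.17 in the old pair and -1.88 in the young pair (mean -1.03 ± 0.39, adjusted p = 0.243), and Pgk1 at -0.22 in the old pair and -1.61 in the young pair (mean -0.92 ± 0.30, adjusted p = 0.178). Pfkp and Pgk1 were thus nearly even in the old pair and low in young PRI-724 cells.

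The other 4 members had pairs of opposite sign, as 39.1% of all genes did. Vegfa differed by 0.05 in the old pair and -0.67 in the young pair (mean -0.31 ± 0.36, adjusted p = 0.705). Hk2 differed by 0.13 in the old pair and -0.47 in the young pair (adjusted p = 0.801), and Slc2a1 by 0.20 in the old pair and -0.45 in the young pair (adjusted p = 0.839). Car9 went the other way, with -0.42 in the old pair and 0.08 in the young pair (adjusted p = 0.789).

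The members' median difference between PRI-724 and vehicle was -0.97, against -0.05 for all tested genes, with -0.32 in the old pair and -1.60 in the young pair. Lower in both pairs were 6 members, against 35% of all genes. At least 2-fold lower in the young pair were 6 members (12.3% of all genes), which were Bnip3, Pfkfb3, Pdk1, Pfkp, Pgk1 and Ldha, and in the old pair 0 (2.84% of all genes). The young pair's difference was the larger in size for 9 members, against 74.8% of all genes. Both PRI-724 arrays lay below both vehicle arrays for 6 members, a pattern that 26.3% of all genes had. The count past the threshold was 0 in the fit of all arrays and 5 when only the PRI-724 and vehicle arrays were fitted. It was 0 after cyclic loess, 0 after quantile normalization and 0 with no age in the model. Leaving out either quiescent array cannot change these differences, so the members' median of -0.97 there says nothing of its stability. That median was -1.42 without the old vehicle array and -0.49 without the young vehicle array. It was -1.49 without the old PRI-724 array and -0.40 without the young PRI-724 array.

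The young pair holds the narrow young PRI-724 array. For PRI-724 minus vehicle in young cells, the brightest 25% of all tested genes had a median of -0.42 and the dimmest 25% one of 0.37, against 0.00 for each of these in old cells. After cyclic loess the brightest 25% stood at -0.01 in young cells and the members' median at -1.30, and after quantile normalization the members' median was -1.25. In old cells the medians were -0.34 and -0.31 under these scalings. Under each of them 6 members were still at least 2-fold lower in the young pair. The young pair's value was -2.01 for Bnip3, -1.91 for Pdk1, -1.72 for Pfkfb3, -1.43 for Pgk1, -1.40 for Pfkp and -1.21 for Ldha after cyclic loess. Hk2 did not keep its sign in the young pair, at 0.02 after cyclic loess and 0.08 after quantile normalization, and Car9 became lower, at -0.20 and -0.13.

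**Figure D3:**
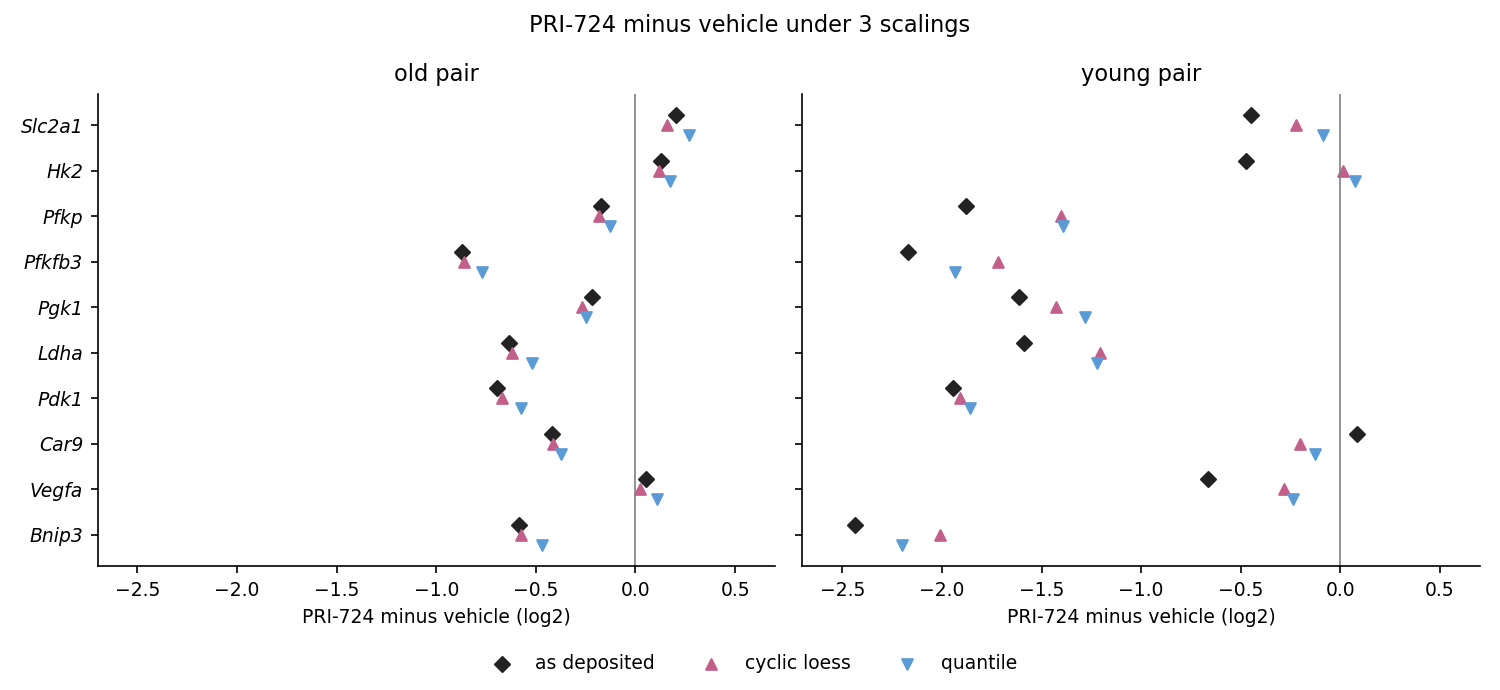
PRI-724 minus vehicle (log2, horizontal axis) for each gene in the old pair (left) and the young pair (right), as deposited (diamonds), after cyclic loess (upward triangles) and after quantile normalization (downward triangles). Bnip3, Pfkfb3, Pdk1, Pfkp, Pgk1 and Ldha stay beyond -1 in the young pair under all 3 scalings, and in the old pair no gene does.

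Markers of other cells moved with the same comparison. In PRI-724 against vehicle cells 11 of 15 macrophage markers, 14 of 15 sinusoidal endothelial markers and 2 of 13 stellate cell markers fell, and 0 rose in these lists. The 15 macrophage markers had a median difference of -2.47 and the 15 endothelial markers one of -2.51, larger than the members' -0.97. For the 13 stellate cell markers the median was -0.83, with -0.52 in the old pair and -1.36 in the young pair. Of these 13, 12 had a negative mean difference and 1 a positive one. Without the young PRI-724 array 0 of the 15526 genes passed limma's threshold in this comparison (997 at an unadjusted p under 0.05, among them 1 member), so the counts given for markers and lists there were 0 as well. In that fit, which rests on the old PRI-724 array, the markers' medians were -2.58 for macrophages and -1.84 for endothelium. Hepatocyte markers, of which 0 of 12 passed, had a median of 0.53 with all arrays and of -0.15 without the young PRI-724 array. The part of these cells in the members' differences was not tested.

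PRI-724 was also set against quiescent cells, with the vehicle arrays out of the difference. No member stood apart: 0 of 10 passed, by limma, against 1.28% of all genes that rose and 2.43% that fell, and unadjusted p-values under 0.05 were seen for 0 members, against 16.3% of all genes. The median difference was -0.10, beside 0.03 over all genes. Ldha differed by 0.14 ± 0.30 (adjusted p = 0.908) and Pdk1 by -0.06 ± 0.35 (adjusted p = 0.976). Pfkfb3 was lower in both pairs, by -0.63 in old and -0.76 in young cells (mean -0.70 ± 0.35, adjusted p = 0.371). Bnip3 was lower in both pairs as well, by -0.06 in old and -0.85 in young cells (adjusted p = 0.684). These were the 2 members lower in both pairs, against 24.9% of all genes.

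For the other 8 members the pairs had opposite signs, which 44.3% of all genes had. Pfkp was higher in old PRI-724 cells by 0.81 and lower in young ones, at -0.41 (adjusted p = 0.898). Pgk1 was near even in the old pair, at 0.10, and at -0.99 in the young pair (adjusted p = 0.549). The difference of Vegfa was -0.57 in the old pair and 0.30 in the young pair (adjusted p = 0.931). Slc2a1, Hk2 and Car9 had adjusted p-values of 0.983, 0.894 and 0.997. A p that misses the threshold does not show that PRI-724 cells and quiescent cells have the same levels.

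Age was compared as old minus young over the 3 states. No member passed limma's test of age: 0 of 10 did, against 0.264% of all genes that rose and 0.251% that fell, and 0 members, against 10.4% of all genes, had an unadjusted p under 0.05. Their median difference was -0.20, beside 0.04 for all genes. Pdk1 was at -0.63 ± 0.29 (adjusted p = 0.494), Bnip3 at -0.55 ± 0.32 (adjusted p = 0.619), Hk2 at 0.41 ± 0.23 (adjusted p = 0.607), Slc2a1 at -0.35 ± 0.20 (adjusted p = 0.603) and Ldha at -0.35 ± 0.25 (adjusted p = 0.685).

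Within the states, vehicle cells had the widest age differences for most members. Old minus young was -1.53 for Pdk1 and -1.52 for Bnip3 in vehicle cells, so that young cells had 2.89-fold and 2.86-fold more signal. In PRI-724 cells the same genes were at -0.28 and 0.33, and in quiescent cells at -0.07 and -0.46. Only these 2 members were at least 2-fold higher in young than in old vehicle cells, as 1.79% of all genes were in that direction. Pfkp, Ldha, Pfkfb3, Slc2a1, Pgk1 and Vegfa lay between -0.89 and -0.58 in vehicle cells. Vegfa turned round in quiescent cells, at 1.01, and Pfkp in PRI-724 cells, at 0.82. The members' medians of old minus young were 0.23 in PRI-724, -0.85 in vehicle and -0.04 in quiescent cells. All tested genes had medians of 0.17 in PRI-724, 0.01 in vehicle and 0.03 in quiescent cells. After cyclic loess the members' medians were -0.10 in PRI-724, -0.81 in vehicle and -0.09 in quiescent cells. After quantile normalization they were 0.06 in PRI-724, -0.79 in vehicle and -0.03 in quiescent cells. Whether the members' medians differ between states could not be tested. Hepatocyte markers moved with age, as 5 of 12 rose and 0 fell in old against young cells, with a median of 1.75. Of these 5 calls 0 were kept after cyclic loess and 0 without the young PRI-724 array, where the medians were 1.63 and 2.47. Their part in the members' values was not tested.

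**Figure D4:**
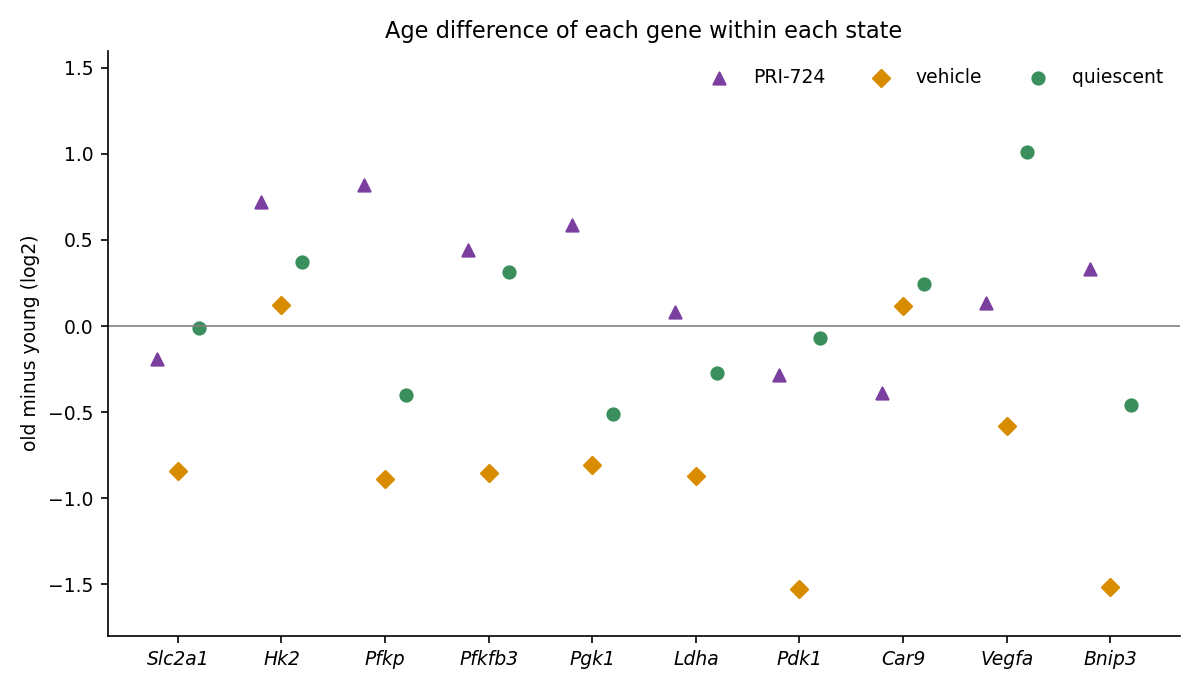
Old minus young in log2 signal (vertical axis) of each gene in PRI-724 cells (triangles), vehicle cells (diamonds) and quiescent cells (circles), 1 array per age and state. The vehicle diamonds of 8 genes lie below 0, lowest for Pdk1 and Bnip3, and the other states scatter on both sides.

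Other enzymes of glycolysis were read from a list of 14, of which 11 had a single-symbol probe set (Gpi1, Aldoa and Eno1 were not analysed here). Between vehicle and quiescent cells 3 rose and 0 fell. Tpi1, the triose phosphate isomerase, rose by 2.17 ± 0.39 (adjusted p = 0.0155, limma), with 9.64 and 10.93 in old and young vehicle cells against 8.35 and 7.88 in old and young quiescent cells. Pfkm, the muscle-type phosphofructokinase, rose by 1.47 ± 0.30 (adjusted p = 0.0221). Gapdh, the glyceraldehyde phosphate dehydrogenase, rose by 0.83 ± 0.16 (adjusted p = 0.0206). Pkm, the pyruvate kinase of the last step, differed by 0.67 ± 0.19 (adjusted p = 0.0717). The list's median was 0.67, close to that of the members. Against vehicle, PRI-724 gave 0 higher and 2 lower calls with a median of -0.68, and 10 of the 11 were lower in both pairs.

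The PRI-724 calls were Hk3 and Pfkl. Pfkl, the liver-type phosphofructokinase, measured 7.36 and 6.94 in old and young PRI-724 cells, 8.66 and 9.67 in old and young vehicle cells, and 7.58 and 8.07 in old and young quiescent cells. It fell by 2.01 on the log2 scale with PRI-724 (adjusted p = 0.0206) and differed by 1.34 between vehicle and quiescent cells (adjusted p = 0.0564). Hk3, a hexokinase known from myeloid cells, measured 5.98 and 5.82 in old and young PRI-724 cells, 8.12 and 8.08 in old and young vehicle cells, and 8.22 and 8.19 in old and young quiescent cells. It fell by 2.20 against vehicle (adjusted p = 0.00391) and fell by 2.30 against quiescent cells (adjusted p = 0.00185). Both PRI-724 arrays lay below the other 4, as they did for the mean of the macrophage markers. Hk1, the broadly expressed hexokinase, differed by 0.43 between vehicle and quiescent cells (adjusted p = 0.421) and by -0.62 between PRI-724 and vehicle cells (adjusted p = 0.333).

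Lactate leaves the cell through monocarboxylate transporters, and the list of lactate and pyruvate handling had 13 measured genes of 14. In vehicle against quiescent cells 2 rose and 0 fell, with a median of 0.26. Slc16a3, the lactate exporter MCT4, measured 5.08 and 5.59 in old and young PRI-724 cells, 6.49 and 8.31 in old and young vehicle cells, and 5.53 and 5.91 in old and young quiescent cells. As with Ldha, Pdk1 and Bnip3, both vehicle arrays lay highest and the young one above the old one. Slc16a3 rose by 1.68 ± 0.36 in vehicle against quiescent cells (adjusted p = 0.0265) and fell by 2.07 in PRI-724 against vehicle cells (adjusted p = 0.0196). Bsg, the chaperone of that transporter, rose by 1.10 ± 0.26 in vehicle cells (adjusted p = 0.0383), and its -0.44 with PRI-724 did not pass (adjusted p = 0.456). With PRI-724 0 genes of this list rose and 1 fell, with a median of -0.27. Slc16a1, the transporter MCT1, stood at 0.83 for PRI-724 minus vehicle (adjusted p = 0.222).

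Close relatives of the members were read as well, 27 tested of 36 listed. In vehicle against quiescent cells 3 rose and 0 fell (Pfkm, given above, the mitochondrial carbonic anhydrase Car5b at 1.71 ± 0.32, adjusted p = 0.0171, and the placental growth factor Pgf at 1.38 ± 0.34, adjusted p = 0.0444). In PRI-724 against vehicle cells 0 rose and 3 fell, which were Hk3, Pfkl and the carbonic anhydrase-related Car8. Car8 fell by 2.85 (adjusted p = 0.00667). Pdk4, the pyruvate dehydrogenase kinase of fasting, was at -1.35 for PRI-724 minus vehicle (adjusted p = 0.0851) but at 0.15 for vehicle minus quiescent (adjusted p = 0.841). Pdk3 was at -1.39 for PRI-724 minus vehicle (adjusted p = 0.0985) and 1.33 for vehicle minus quiescent (adjusted p = 0.0659). Slc2a3, the transporter GLUT3, was at 0.57 for PRI-724 minus vehicle (adjusted p = 0.307). With age 1 relative rose and 0 fell: Pgf, higher in old cells by 2.22 ± 0.28 (adjusted p = 0.0102), a call that was lost under both other scalings and without either PRI-724 array.

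Further HIF targets numbered 26 measured of 30. Between vehicle and quiescent cells 4 rose and 0 fell, with a median of 0.33 (0.03 in the old pair and 0.51 in the young pair). The vasoconstrictor endothelin, Edn1, rose by 3.19 ± 0.35 (adjusted p = 0.00408), and measured 7.86 and 6.07 in old and young PRI-724 cells, 9.89 and 9.46 in old and young vehicle cells, and 6.86 and 6.11 in old and young quiescent cells. Angptl4, an inhibitor of lipoprotein lipase, rose by 3.04 ± 0.32 (adjusted p = 0.00403). The collagen prolyl hydroxylase subunit P4ha2 rose by 1.69 ± 0.38 (adjusted p = 0.0310), and the mitochondrial adenylate kinase Ak4 by 1.66 ± 0.42 (adjusted p = 0.0476). In PRI-724 against vehicle cells 0 rose and 2 fell, Edn1 by 2.71 (adjusted p = 0.00470) and Angptl4 by 1.95 (adjusted p = 0.0160). The median there was -0.71, made of -0.15 in the old pair and -1.19 in the young pair. At least 2-fold lower were 15 of 26 genes in the young pair (12.3% of all genes) and 3 in the old pair (2.84% of all genes). The young pair holds the narrow young PRI-724 array. Edn1 is also strongly expressed in endothelium, whose markers moved with PRI-724 as given above, and their part in its values was not tested.

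The factors themselves came from a list of 13 subunits and regulators, all tested. Between vehicle and quiescent cells 2 rose and 0 fell. Epas1, the subunit HIF-2 alpha, measured 9.17 and 8.56 in old and young PRI-724 cells, 10.17 and 10.15 in old and young vehicle cells, and 8.83 and 8.69 in old and young quiescent cells. It rose by 1.40 ± 0.26 in vehicle against quiescent cells (adjusted p = 0.0171) and fell by 1.29 in PRI-724 against vehicle cells (adjusted p = 0.0359), the 1 call of this list there. Endothelium expresses this gene strongly too. Hif1a, the subunit HIF-1 alpha, which is controlled mainly through protein stability, measured 8.73 and 8.75 in old and young PRI-724 cells, 8.97 and 8.98 in old and young vehicle cells, and 9.11 and 9.62 in old and young quiescent cells. Hif1a did not pass in vehicle against quiescent cells (-0.39, adjusted p = 0.424) or in PRI-724 against vehicle cells (-0.24, adjusted p = 0.687). Cited2, which competes with HIF for CBP and p300, rose by 2.13 ± 0.29 in vehicle against quiescent cells (adjusted p = 0.00643) and by 2.19 in PRI-724 against quiescent cells (adjusted p = 0.00319).

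The oxygen sensors and the coactivators did not pass. Egln1 differed by 1.24 between vehicle and quiescent cells (adjusted p = 0.113) and by -0.99 between PRI-724 and vehicle cells (adjusted p = 0.291). Egln3, itself induced by HIF, measured 7.22 and 7.57 in old and young PRI-724 cells, 7.38 and 9.84 in old and young vehicle cells, and 7.66 and 7.14 in old and young quiescent cells, so that its young vehicle array alone stood high (adjusted p = 0.237 for vehicle minus quiescent). Arnt, the common partner, was at 0.27 for vehicle minus quiescent (adjusted p = 0.600) and -0.17 for PRI-724 minus vehicle (adjusted p = 0.795). Vhl was at 0.32 for vehicle minus quiescent (adjusted p = 0.506) and -0.48 for PRI-724 minus vehicle (adjusted p = 0.402). Crebbp, the gene of CBP, was at -0.85 for vehicle minus quiescent (adjusted p = 0.0742) and 0.24 for PRI-724 minus vehicle (adjusted p = 0.668). Ep300 was at -0.40 for vehicle minus quiescent (adjusted p = 0.422) and 0.12 for PRI-724 minus vehicle (adjusted p = 0.861).

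Calls in the lists of other genes also depended on single arrays. Counted with the VEGF receptors described further on, 15 genes passed in vehicle against quiescent cells, of which 4 passed without the young vehicle array, 6 without the old PRI-724 array, 6 without the young PRI-724 array, 5 after cyclic loess and 5 after quantile normalization. Edn1 and Angptl4 passed in all 14 alternatives, Tpi1 and P4ha2 in 7, Gapdh, Slc16a3 and Bsg in 6, and Ak4 in 2. Of the 10 that passed in PRI-724 against vehicle cells, 0 passed without the young PRI-724 array, 6 without the old PRI-724 array, 6 without the young vehicle array, 5 after cyclic loess and 5 after quantile normalization. The vehicle arrays enter both comparisons, so a high vehicle value lifts one difference and lowers the other.

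**Figure D5:**
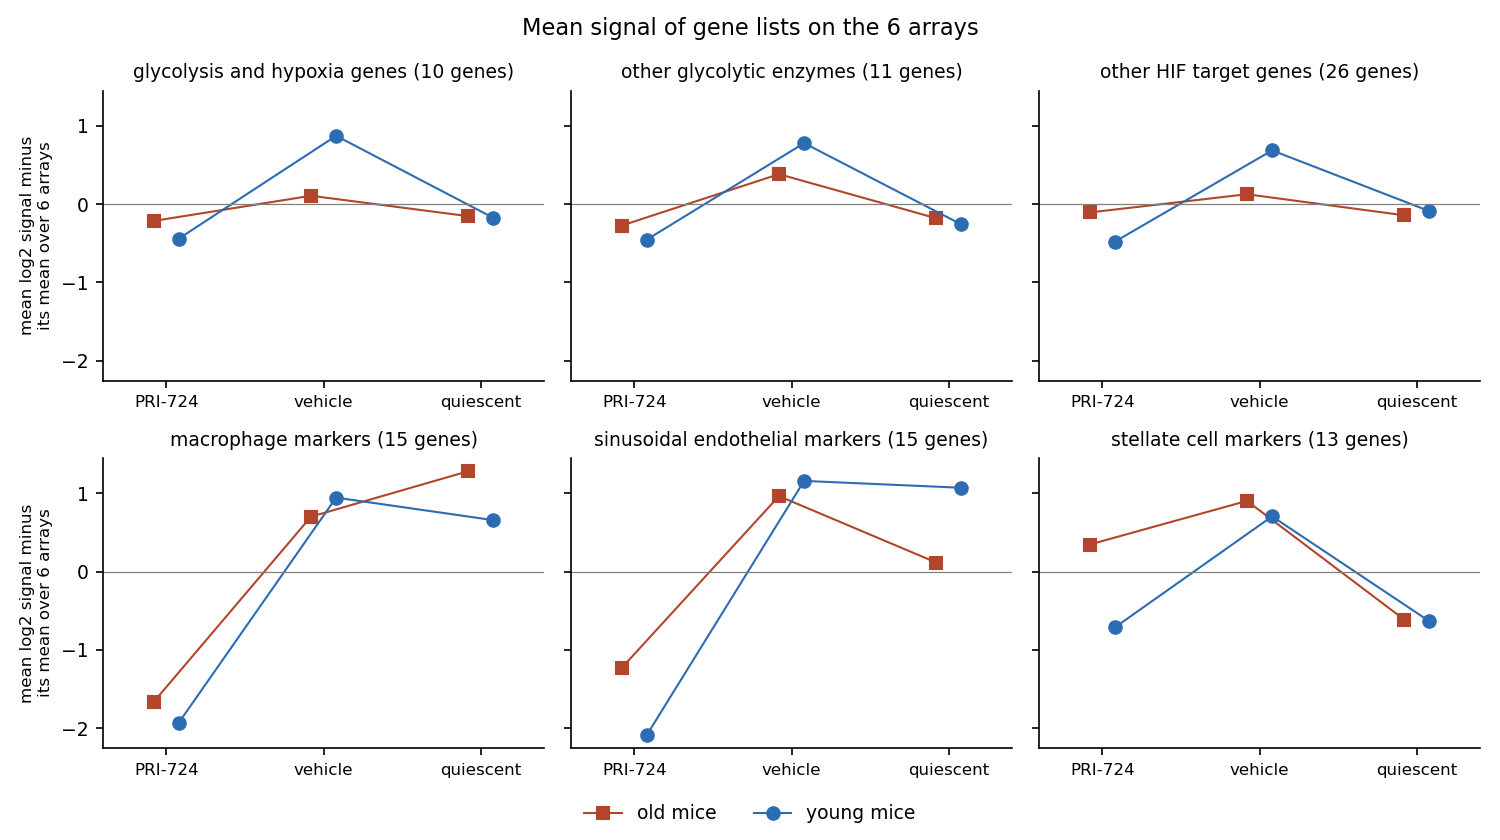
Mean log2 signal of 6 gene lists in PRI-724, vehicle and quiescent cells, minus the list's own mean over the 6 arrays (vertical axis), with squares for old and circles for young mice. The glycolysis, hypoxia and HIF target lists peak in young vehicle cells. So do the endothelial markers by a small margin, with means of 9.67 there and 9.58 in young quiescent cells. The macrophage and endothelial markers are low in both PRI-724 samples and high in vehicle and quiescent cells.

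The mean of the 10 members was 7.52 and 7.30 in old and young PRI-724 cells, 7.85 and 8.61 in old and young vehicle cells, and 7.59 and 7.56 in old and young quiescent cells. The other glycolytic enzymes averaged 7.78 and 7.60 in old and young PRI-724 cells, 8.44 and 8.84 in old and young vehicle cells, and 7.88 and 7.80 in old and young quiescent cells. The young vehicle array was the highest of the 6 for 7 of 10 members, 8 of 11 other glycolytic enzymes and 14 of 26 other HIF targets, against 19.8% of all tested genes. Both vehicle arrays lay above the other 4 for 5 members, Pfkp, Pfkfb3, Ldha, Pdk1 and Bnip3, against 15.1% of all genes.

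The members also differed among themselves. Bnip3 spanned 2.43 log2 units over the 6 arrays, Pdk1 2.23, Pfkfb3 2.17, Pfkp 1.88, Ldha 1.83 and Pgk1 1.61, while Vegfa spanned 1.01, Slc2a1 0.84, Hk2 0.72 and Car9 0.42. Likeness was measured as the root mean squared distance between profiles over the 6 arrays, each centred on its own mean. Ldha and Pfkp were the closest pair, at 0.219, Pdk1 was closest to Ldha (0.244) and Bnip3 to Pdk1 (0.264). Pfkfb3 was closest to Bnip3 (0.316) and Pgk1 to Pfkp (0.342). Slc2a1 and Car9 were closest to each other (0.293), Vegfa was closest to Slc2a1 (0.327) and Hk2 to Vegfa (0.330), and these 4 were the genes of smallest range. The profiles were not scaled to a common range, so genes of small range can lie close without a shared pattern.

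Outside the lists, the genes whose profile lay nearest to the members' mean were Serpinb1b (0.0642), Papolg (0.101), Fbxo25 (0.104), Pon2 (0.107) and Polr3gl (0.110). That mean profile was -0.21 and -0.44 in old and young PRI-724 cells, 0.11 and 0.87 in old and young vehicle cells, and -0.15 and -0.17 in old and young quiescent cells.

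The members Slc2a1, Pdk1 and Car9 had a second, dimmer probe set. That of Slc2a1 (mean log2 signal 5.90) gave -0.28 in the old pair and 0.02 in the young pair for vehicle minus quiescent, and 0.06 in the old pair and -0.25 in the young pair for PRI-724 minus vehicle. That of Pdk1 had a mean of 2.38, below the filter, and differed by 0.18 in the old pair and 0.22 in the young pair for vehicle minus quiescent, and by -0.36 and -0.55 for PRI-724 minus vehicle, with the signs of the main probe set. That of Car9 (mean 4.92) differed in sign from the main one in the old pair for vehicle minus quiescent, at -0.22, and in the young pair for PRI-724 minus vehicle, at -0.13.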

How the data were processed

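Transcripts of 6 mouse hepatic stellate cell samples were measured on Affymetrix arrays, and each sample was a pool of cells from 5 mice. The deposited values are log2 signals, made by the authors with Affymetrix Expression Console and RMA, per the submitters' processing notes. No source used here names a version, the RMA options or the genome build behind the array. RMA can align arrays, which can shrink differences. The deposited values still differed in spread, with interquartile ranges of 1.71 to 2.43 over the tested genes. Array number limits precision.

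Of 41345 probe sets, 23521 had a single symbol in the platform table, 1814 had more and 16010 had none. The probe set with the highest mean stood for a gene (22180 genes), and the lowest 30% by mean were left out. limma 3.58.1 in R 4.3.3 fitted age and state with moderated, trended variances (residual df 2, prior df 7.76), adjusted by the Benjamini-Hochberg method over 15526 genes. Differences within an age have no test. The model was tested on simulated data, where it missed most 2-fold differences between states.

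All 10 members were named. Of each other list, genes past the threshold were named (6 at most), or otherwise the 2 with the largest difference, besides 17 regulators and enzymes always named, the 5 nearest profiles and each member's nearest member. Members and lists were chosen with earlier results of these data known. The alternatives were 2 other filters, the mean of probe sets, no trend, no age in the model, only the arrays compared, cyclic loess, quantile normalization and each array left out. Promoters came from RefSeq, GRCm38.p6. Figures used Python 3.11.15, pandas 2.3.3 and matplotlib 3.10.9.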

Additional observations from a re-analysis of the deposited data

Results flagged for a closer look

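With 1 array per age and state, a member whose old and young pair moved in opposite directions is given here; whether the pairs differ was not tested. This was so for 15 of the 30 combinations of a member and a state comparison. The pairs of all tested genes were opposite in 25.9% for vehicle minus quiescent, 39.1% for PRI-724 minus vehicle and 44.3% for PRI-724 minus quiescent.

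For vehicle minus quiescent, Slc2a1 differed by -0.32 in the old pair and 0.51 in the young pair, Hk2 by -0.10 in the old pair and 0.15 in the young pair, and Vegfa by -0.63 in the old pair and 0.97 in the young pair. Vegfa thus had its highest signal in old quiescent cells and its lowest in young quiescent cells.

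For PRI-724 minus vehicle, Slc2a1 differed by 0.20 in the old pair and -0.45 in the young pair, and Hk2 by 0.13 in the old pair and -0.47 in the young pair. Car9 differed by -0.42 in the old pair and 0.084 in the young pair, and Vegfa by 0.051 in the old pair and -0.67 in the young pair.

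For PRI-724 minus quiescent, Slc2a1 differed by -0.12 in the old pair and 0.061 in the young pair, and Hk2 by 0.022 in the old pair and -0.33 in the young pair. Pfkp was at 0.81 in the old pair and -0.41 in the young pair, Pgk1 at 0.10 in the old pair and -0.99 in the young pair, Ldha at 0.32 in the old pair and -0.036 in the young pair, and Pdk1 at -0.17 in the old pair and 0.045 in the young pair. Car9 was at -0.31 in the old pair and 0.32 in the young pair, and Vegfa at -0.57 in the old pair and 0.30 in the young pair. The values of Pfkp, Pgk1, Car9 and Vegfa are the widest apart.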

How the results depend on the processing

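Under the alternatives, 458 of the members' differences kept their direction and their side of the threshold, 26 came past it, 9 lost it and 49 changed sign. The 9 losses are all of Ldha for vehicle minus quiescent. The other filters, no trend, no age in the model and only the arrays compared leave a difference itself unchanged. So does leaving out an array of the state that is not compared. In these alternatives its direction could not change, only its side of the threshold. The number of members past the threshold for vehicle minus quiescent was 1 in the fit reported, 0 with no age in the model, 0 with only the arrays compared, 0 after cyclic loess, 0 after quantile normalization and 0 to 5 with each array left out. For PRI-724 minus vehicle it was 0 in the fit reported, 5 with only the arrays compared and 0 to 6 with each array left out. It was 0 for PRI-724 minus quiescent and for old minus young throughout. All genes past the threshold numbered 318 to 1230 for vehicle minus quiescent, 0 to 968 for PRI-724 minus vehicle, 0 to 1053 for PRI-724 minus quiescent and 0 to 343 for old minus young with each array left out, against 911, 341, 577 and 80 in the fits reported. With no age (or state) in the model they numbered 114, 91, 217 and 0, after cyclic loess 482, 103, 546 and 7, after quantile normalization 331, 84, 534 and 12. With only the arrays compared they numbered 481 for vehicle minus quiescent, 965 for PRI-724 minus vehicle and 1064 for PRI-724 minus quiescent.

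The changes of sign belong mostly to small differences. For vehicle minus quiescent, Slc2a1 was -0.020 with the mean of probe sets, -0.069 after cyclic loess and -0.046 after quantile normalization, Hk2 was -0.18 after either scaling, and Vegfa was -0.0064 after cyclic loess. For PRI-724 minus vehicle, Hk2 was 0.066 after cyclic loess and 0.12 after quantile normalization, and Slc2a1 was 0.092 after quantile normalization. For PRI-724 minus quiescent, Car9 was -0.040 with the mean of probe sets, -0.037 after cyclic loess and -0.010 after quantile normalization, and Slc2a1 was 0.046 after quantile normalization. For old minus young, Car9 was 0.049 after cyclic loess and 0.043 after quantile normalization. With each array left out in turn, vehicle minus quiescent ran from -0.28 to 0.46 for Slc2a1, -0.19 to 0.23 for Hk2, -0.016 to 0.36 for Car9 and -0.45 to 0.79 for Vegfa. PRI-724 minus vehicle ran from -0.49 to 0.25 for Slc2a1, -0.41 to 0.064 for Hk2, -0.45 to 0.12 for Car9 and -0.89 to 0.27 for Vegfa. PRI-724 minus quiescent ran from -0.28 to 0.22 for Slc2a1, -0.39 to 0.085 for Hk2, -0.53 to 0.93 for Pfkp, -1.07 to 0.18 for Pgk1, -0.19 to 0.47 for Ldha, -0.48 to 0.36 for Pdk1, -0.28 to 0.29 for Car9, -0.75 to 0.48 for Vegfa and -1.11 to 0.20 for Bnip3. Old minus young ran from -0.65 to 0.21 for Pfkp, -0.27 to 0.38 for Pfkfb3, -0.66 to 0.038 for Pgk1, -0.14 to 0.18 for Car9 and -0.22 to 0.57 for Vegfa. The cause was not tested.

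With 1 array per group, leaving out an array leaves that group out, so the pair's other age stands alone and is assumed to vary like the rest. The labels carry no replicate numbers. Age pairs the arrays of the states in the fits reported, and the fit with no age in the model is the unpaired one. The number of arrays limits precision, and the deposited values carry no detection calls.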

Other observations

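The receptors that read Vegfa were measured as well. Of 5 receptors and co-receptors, 0 rose and 3 fell in PRI-724 against vehicle cells, with a median of -2.19. Kdr, the main signalling receptor, fell by 2.45 (adjusted p = 0.00789, limma), and measured 7.42 and 5.81 in old and young PRI-724 cells, 9.30 and 8.83 in old and young vehicle cells, and 7.83 and 7.51 in old and young quiescent cells. Flt4 fell by 2.26 (adjusted p = 0.0231) and the co-receptor Nrp2 by 1.59 (adjusted p = 0.0253). In vehicle against quiescent cells Kdr rose by 1.40 (adjusted p = 0.0486) and Nrp2 fell by 1.28 (adjusted p = 0.0352), and in PRI-724 against quiescent cells Nrp2 fell by 2.87 (adjusted p = 0.000964) and Flt1 by 2.56 (adjusted p = 0.0206). Of these receptors, Kdr is on the list of sinusoidal endothelial markers. In that list 14 of 15 fell in PRI-724 against vehicle cells, while 3 rose and 0 fell in vehicle against quiescent cells. The part of endothelial cells in the receptors' values was not tested.

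Gluconeogenesis, fructose metabolism and the pentose phosphate pathway were read as well. Of 9 genes of gluconeogenesis and fructose metabolism measured of 11, 0 passed limma's threshold in any comparison. Of all genes 5.87% passed in vehicle minus quiescent, 2.2% in PRI-724 minus vehicle, 3.72% in PRI-724 minus quiescent and 0.515% in old minus young. Lists this small can hold 0 calls at such shares. Unadjusted limma p-values lay under 0.05 for 3 in vehicle minus quiescent (22.4% of all genes) and 1 in PRI-724 minus vehicle (15.5%). They did so for 1 in PRI-724 minus quiescent (16.3%) and 5 in old minus young (10.4%). In old minus young 8 of the 9 were higher in old cells, with a median of 0.29. Hepatocyte markers were higher in old cells too (median 1.75), and their part in these values was not tested. Fbp1, the fructose bisphosphatase, was at -1.51 for vehicle minus quiescent (adjusted p = 0.0617, limma), and Pcx, the pyruvate carboxylase, at 0.95 (adjusted p = 0.242). Pck2, the mitochondrial enzyme that makes phosphoenolpyruvate, was at 0.92 for PRI-724 minus vehicle (adjusted p = 0.177). Of 5 genes of the pentose phosphate pathway measured of 7, 0 passed as well. An unadjusted limma p under 0.05 was seen for 2 in vehicle minus quiescent, 0 in PRI-724 minus vehicle, 2 in PRI-724 minus quiescent and 0 in old minus young. The shares of all genes are those just given for each comparison. Rpe was at 1.02 (adjusted p = 0.0676) and Rpia at -0.72 (adjusted p = 0.130) for vehicle minus quiescent, and Pgd at 0.26 (adjusted p = 0.630) for PRI-724 minus vehicle.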
